A study of Mus musculus with 6 samples.

Results

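The clock genes described here are 10 mouse genes named by symbol: the repressors Per1, Per2, Per3, Cry1 and Cry2, the activators Arntl (BMAL1) and Clock, the nuclear receptors Nr1d1 (REV-ERBα) and Nr1d2 (REV-ERBβ), and the output factor Dbp. They were taken from a table of 55471 genes, and 10 of 10 passed the filter on low counts, as did 17981 genes of the whole table. RNA came from the hippocampus of C57BL/6 mice aged 3 to 6 months, with the background given as C57BL/6J in the study's methods. The libraries were 3 Control (Control 1 to 3) and 3 CBP-ifKO (CBP-ifKO 1 to 3). The CBP-ifKO mice carried floxed Crebbp alleles and the Camk2a_creERT2 driver, and the study's methods describe their controls as littermates without the recombinase, although the description label of the Control libraries names that driver. Both genotypes received 5 intragastric doses of tamoxifen (20 mg/mL in corn oil) on alternate days. The driver acts in excitatory forebrain neurons, so glia, vessels and interneurons kept CBP, and recombined neurons are described as making a truncated protein. The methods describe several screens of these mice, among them one in which each sample was pooled hippocampi of 3 females and others of individual mice, and the labels do not say which one these libraries are, so that n = 3 may count pools or single animals. The hour at which tissue was taken is not given in the sources used here.

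The circadian clock is a feedback loop of transcription. The heterodimer of CLOCK and BMAL1 binds E-boxes and activates the Per and Cry genes, whose proteins return to the nucleus and repress it, while the REV-ERB receptors repress Arntl and the ROR receptors activate it. The same heterodimer drives output factors such as DBP, which acts through D-boxes, and CBP is a histone acetyltransferase that has been described as a coactivator of CLOCK and BMAL1 and of CREB, the factor through which synaptic activity induces Per1. The hippocampus holds such a clock outside the suprachiasmatic nucleus, and the RNA of several of these genes cycles over the day, so that a level measured at 1 time is 1 point on a cycle.

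The promoters are shown for their short motifs, some of which stood in genes that fell and also in Cry1, whose level did not pass the test. Sequences before the annotated starts were taken from RefSeq (build GRCm38.p6), which matched 9 of the 10 genes in 13 windows of 250 bases. Per2 was not matched. Capitals mark an E-box (CACGTG), an E-prime-box (CACGTT, read as AACGTG on the other strand) or a D-box (TTATGTAA), and bases inside an annotated exon of the gene were left off the 3′ end.
Nr1d1 (chr11:98775378-98775627, minus strand): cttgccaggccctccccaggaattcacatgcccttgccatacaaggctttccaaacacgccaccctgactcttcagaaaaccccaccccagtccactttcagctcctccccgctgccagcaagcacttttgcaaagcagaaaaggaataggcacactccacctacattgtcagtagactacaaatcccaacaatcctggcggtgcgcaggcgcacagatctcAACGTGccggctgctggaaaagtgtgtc
Per1 (chr11:69098699-69098947, plus strand): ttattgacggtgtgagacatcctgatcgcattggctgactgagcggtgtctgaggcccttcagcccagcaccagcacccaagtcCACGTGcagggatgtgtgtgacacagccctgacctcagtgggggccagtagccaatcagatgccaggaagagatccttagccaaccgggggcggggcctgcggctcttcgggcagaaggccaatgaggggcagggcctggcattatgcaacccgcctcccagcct
Cry2 (chr2:92434070-92434319, minus strand): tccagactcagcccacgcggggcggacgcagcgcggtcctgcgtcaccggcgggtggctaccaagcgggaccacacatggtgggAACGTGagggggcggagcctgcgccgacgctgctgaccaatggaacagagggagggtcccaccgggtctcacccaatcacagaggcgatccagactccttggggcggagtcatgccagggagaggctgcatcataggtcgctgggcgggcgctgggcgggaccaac
Per3 (chr4:151044666-151044915, minus strand): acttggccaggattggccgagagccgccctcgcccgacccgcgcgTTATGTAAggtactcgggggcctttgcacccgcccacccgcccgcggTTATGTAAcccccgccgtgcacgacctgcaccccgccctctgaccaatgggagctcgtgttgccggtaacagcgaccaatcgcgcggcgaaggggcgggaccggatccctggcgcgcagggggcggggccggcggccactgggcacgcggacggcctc
Cry1 (chr10:85185065-85185304, minus strand): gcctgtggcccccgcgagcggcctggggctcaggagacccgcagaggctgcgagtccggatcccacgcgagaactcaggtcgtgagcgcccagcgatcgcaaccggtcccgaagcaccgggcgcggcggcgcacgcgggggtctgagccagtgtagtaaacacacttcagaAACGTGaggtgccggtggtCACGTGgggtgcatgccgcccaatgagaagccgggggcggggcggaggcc

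Both strands were searched. The Nr1d1 window held 1 E-prime-box, 28 bases before the start counted at its first base. The Per1 window, the first of 2 for this gene, held 1 E-box at 166 bases before the start, and the Cry2 window held 1 E-prime-box at the same distance. Cry1, whose level did not pass the test, held both, the E-box at 60 and the E-prime-box at 79 bases. The Per3 window held 2 copies of the D-box, at 205 and 158 bases. Among 32851 promoters of the same length, 6.02% held the E-box, 3.85% the E-prime-box and 0.819% the D-box. The windows of Arntl, Clock, Nr1d2 and Dbp held none of these letters, nor the full CRE (TGACGTCA, in 1.55% of promoters) or the RORE core (TAGGTCA, 2.23%). Of the 250 bases searched, 159 in the Dbp window and 138 in 1 Clock window lay inside exons of the gene. Less sequence outside exons was searched in those windows. The CRE half-site TGACG, which the full CRE contains on both strands, stood in 17.8% of promoters and in windows of Per1, Cry1 and Cry2. That of Cry1 lay in the 10 exon bases left off the sequence above.

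The libraries held between 10199008 and 14950257 counts. The targeted gene, Crebbp, averaged 191.2 CPM (the count relative to TMM-scaled library size) in Control and 98.4 CPM in CBP-ifKO libraries (SD 30.1 and 10.8, n = 3 each), and its log2 fold change was -0.96 ± 0.10 (SE; adjusted p by edgeR 3.63e-05). Reads over Esr1, part of which forms the creERT2 fusion, averaged 6.07 CPM in Control, against 66.7 CPM in CBP-ifKO (SD 0.36 and 2.91, n = 3 each), so that the driver was found in the libraries labelled CBP-ifKO. Of 5 markers of the suprachiasmatic nucleus, 4 (Avp, Nms, Six6 and Lhx1) had at most 5 counts in a library. The other, Vip, which hippocampal interneurons also express and which stands in the interneuron list too, had 146 to 260 counts. In whole tissue, fewer cells of a type and less RNA per cell cannot be told apart.

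The comparison of CBP-ifKO with Control asked how the RNA of the clock genes differs once CBP is lost from adult excitatory neurons. Per1, Cry2, Nr1d1 and Dbp fell, and none of the 10 rose. These 4 calls (edgeR, adjusted p under 0.05) stand against a background of 4.99% of genes lower and 1.4% higher, or 6.39% in either direction. By sign, 9 were below 0 and 1 above it, against 50.7% of genes below 0, and the median log2 fold change was -0.22 against -0.003 for all genes tested. In 5 of the 10, every CBP-ifKO library lay below every Control library, a pattern seen in 13.9% of genes. The number of clock genes called went down to 1, Nr1d1, without Control 3 (2.94% of all genes called), CBP-ifKO 2 (2.72%) or CBP-ifKO 3 (2.87%), and when trends on GC content and length were removed (6.11%).

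**Figure D1:**
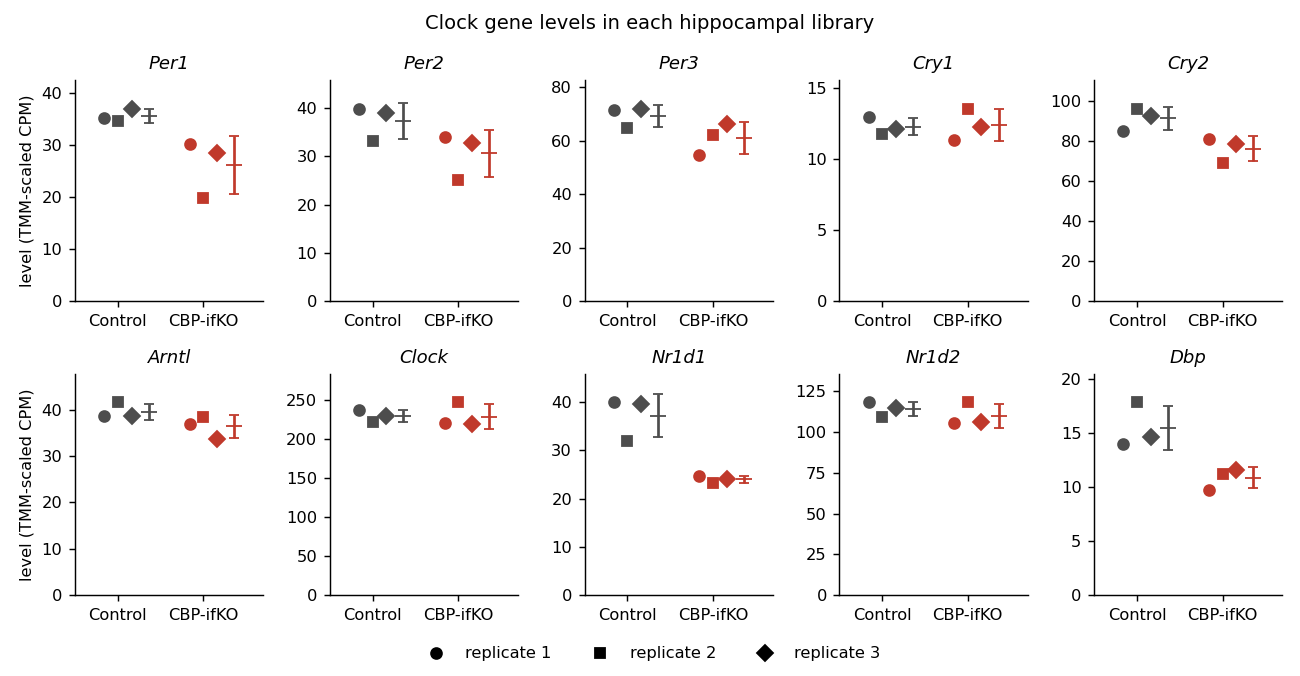
Level of each clock gene (vertical axis, TMM-scaled CPM from 0) in the 3 Control and 3 CBP-ifKO libraries, with 1 symbol per library and the mean ± SD beside the points. The groups separate for Per1, Cry2, Nr1d1, Dbp and, narrowly, Arntl, and overlap for Per2, Per3, Cry1, Clock and Nr1d2.

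The REV-ERB genes encode heme-binding repressors of Arntl and of metabolic genes. Nr1d1 (ENSMUSG00000020889, GRCm38 chromosome 11, 98767932 to 98775333, minus strand) was at 39.9, 32.0 and 39.7 CPM in Control 1 to 3. In CBP-ifKO 1 to 3 it was at 24.7, 23.3 and 24.1 CPM. The 3 CBP-ifKO libraries lay within a narrow band below all Controls, of which Control 2 was the lowest. Nr1d1 fell, with a log2 fold change of -0.63 ± 0.097 (SE) and a 95% interval of -0.83 to -0.42 (adjusted p by edgeR 9.36e-04), to 64.6% of the Control mean. It was called under 17 of 17 alternatives, with log2 fold changes from -0.72 to -0.51. Of its exon bases, 8.55% are shared with Thra on the other strand, and whether the counting used strand was not stated. Nr1d2, its paralogue on chromosome 14, was at 118.1, 109.3 and 114.6 CPM in Control, against 105.5, 118.1 and 106.0 CPM in CBP-ifKO. These groups overlapped, since CBP-ifKO 2 was level with the highest Control. The log2 fold change of Nr1d2 was -0.05 (95% interval -0.19 to 0.09, adjusted p by edgeR 0.721). The interval of Nr1d2 lay above the estimate of Nr1d1, and the difference between the paralogues was not tested.

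Per1 encodes a PERIOD repressor whose gene also answers to synaptic activity and to glucocorticoids. Per1 (chromosome 11, 69095217 to 69109960) was at 35.1, 34.5 and 37.0 CPM in Control, against 30.1, 19.8 and 28.4 CPM in CBP-ifKO. The Controls were close together, and CBP-ifKO 2 stood well below the other libraries of its group. Per1 fell, with a log2 fold change of -0.46 ± 0.12 (SE) and a 95% interval of -0.72 to -0.20 (adjusted p by edgeR 0.0327). The call was lost without Control 1 (-0.47, p 0.0577 adjusted), Control 3 (-0.43, 0.134), CBP-ifKO 2 (-0.27, 0.141) or CBP-ifKO 3 (-0.52, 0.0623), and with GC and length offsets (-0.27, 0.149).

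The other PERIOD genes did not pass the threshold. Per2, the repressor partner that stabilises CRY, was at 39.8, 33.1 and 38.9 CPM in Control, against 33.9, 25.0 and 32.7 CPM in CBP-ifKO. The highest CBP-ifKO library exceeded the lowest Control, and replicate 2 was the lowest of each genotype. Its log2 fold change was -0.29 (95% interval -0.53 to -0.06, adjusted p by edgeR 0.128), and it passed the threshold without Control 2 (-0.37, p 0.0458 adjusted). Per3, a period gene with a lesser part in rhythm generation, was at 71.4, 64.5 and 71.9 CPM in Control, against 54.7, 62.0 and 66.2 CPM in CBP-ifKO. The groups overlapped, and here CBP-ifKO 1 was the lowest. The log2 fold change of Per3 was -0.18 (95% interval -0.35 to -0.01, adjusted p by edgeR 0.194).

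The cryptochromes are the stronger repressors of CLOCK and BMAL1. Cry2 (chromosome 2, 92403646 to 92434043) was at 85.0, 96.0 and 92.4 CPM in Control, against 81.0, 69.0 and 78.2 CPM in CBP-ifKO. The groups did not overlap, although Control 1 and CBP-ifKO 1 were close. Cry2 fell, with a log2 fold change of -0.26 ± 0.074 (SE) and a 95% interval of -0.42 to -0.11 (adjusted p by edgeR 0.0426), and 4.67% of its exon bases are shared with D930015M05Rik on the other strand. The call was lost without Control 2 (-0.22, p 0.0911 adjusted), Control 3 (-0.25, 0.165), CBP-ifKO 2 (-0.19, 0.216) or CBP-ifKO 3 (-0.27, 0.126). It was also lost with upper-quartile scaling (-0.25, 0.0532), library totals (-0.22, 0.0860), GC and length offsets (-0.15, 0.145) and those offsets joined to the replicate block (-0.15, 0.0968). Cry1 was at 13.0, 11.8 and 12.1 CPM in Control, against 11.3, 13.5 and 12.3 CPM in CBP-ifKO. Both the lowest and the highest value of Cry1 came from CBP-ifKO libraries. Its log2 fold change was 0.02 (95% interval -0.23 to 0.27, adjusted p by edgeR 0.952), and the sign turned without CBP-ifKO 2 (-0.05).

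The activators Arntl and Clock did not pass the threshold. Arntl, which encodes BMAL1, was at 38.6, 41.6 and 38.6 CPM in Control, against 37.0, 38.4 and 33.7 CPM in CBP-ifKO. The groups were separated by less than the spread within either. Its log2 fold change was -0.12 (95% interval -0.29 to 0.05, adjusted p by edgeR 0.423). Clock was at 236.9, 222.3 and 229.8 CPM in Control, against 220.2, 247.1 and 219.8 CPM in CBP-ifKO. The CBP-ifKO libraries included the highest and the lowest of the 6. The log2 fold change of Clock was -0.003 (95% interval -0.13 to 0.13, adjusted p by edgeR 0.987), and its sign turned under 9 of 17 alternatives.

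Dbp, a PAR bZIP factor that is among the most strongly cycling outputs of the clock, was the member with the fewest counts of those that fell (101 to 208 per library). Dbp (chromosome 7, 45705088 to 45710203) was at 14.0, 17.9 and 14.7 CPM in Control, against 9.8, 11.2 and 11.6 CPM in CBP-ifKO. All CBP-ifKO libraries lay below all Controls, and Control 2 stood above the others. Dbp fell, with a log2 fold change of -0.51 ± 0.13 (SE) and a 95% interval of -0.78 to -0.24 (adjusted p by edgeR 0.0243). Sphk2, on the other strand, overlaps 18% of the exon bases of Dbp. The call was lost without Control 2 (-0.38, p 0.0828 adjusted), Control 3 (-0.55, 0.0598), CBP-ifKO 1 (-0.45, 0.0826), CBP-ifKO 2 (-0.53, 0.0810) or CBP-ifKO 3 (-0.54, 0.0662), with GC and length offsets (-0.28, 0.172), and with those offsets joined to the replicate block (-0.28, 0.132).

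The other genes of the pathway were taken from a list of 31, all of which were tested. In this list 3 genes fell, where 4.99% of all genes did, 1 rose, where 1.4% did, and 27 did not pass. Across its members the median was -0.04 (log2). The paralogues of the activators passed in opposite directions. Npas2, which can replace CLOCK in forebrain neurons, was at 18.8, 18.04 and 20.4 CPM in Control, against 14.2, 11.9 and 14.1 CPM in CBP-ifKO. Npas2 fell, with a log2 fold change of -0.52 ± 0.11 (SE; adjusted p by edgeR 0.0104), with no overlap between the groups, and lost its call without Control 3 (-0.46, p 0.0745 adjusted) or CBP-ifKO 2 (-0.42, 0.0797). Arntl2, the paralogue of Arntl, was at 15.4, 14.2 and 14.98 CPM in Control, against 24.8, 19.3 and 19.7 CPM in CBP-ifKO. All CBP-ifKO libraries of Arntl2 lay above all Controls. Arntl2 rose, with a log2 fold change of 0.51 ± 0.12 (SE; adjusted p by edgeR 0.0139), and lost its call without Control 3 (0.52, p 0.0537 adjusted) or CBP-ifKO 1 (0.39, 0.0609).

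Among the factors related to Dbp, Hlf fell and Tef did not pass. Hlf was at 111.3, 94.1 and 105.9 CPM in Control, against 84.6, 80.7 and 81.6 CPM in CBP-ifKO, without overlap. Hlf fell, with a log2 fold change of -0.33 ± 0.070 (SE; adjusted p by edgeR 0.00802). Its call was lost without Control 3 (-0.32, p 0.0525 adjusted), CBP-ifKO 2 (-0.31, 0.0511) or CBP-ifKO 3 (-0.32, 0.0618). Its promoter window, unlike those of the 9 matched members, held a full CRE, 9 bases before the start, as 1.55% of promoters did. The windows of Npas2, Arntl2 and Usp2, the other genes called in this list, held no full CRE. The part of this motif in the level of Hlf was not tested. Tef, another PAR bZIP factor, had a log2 fold change of 0.07 (95% interval -0.05 to 0.19, adjusted p by edgeR 0.530).

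Usp2, a clock-controlled gene for a deubiquitinating enzyme, was at 38.5, 37.7 and 37.2 CPM in Control, against 31.4, 26.9 and 25.3 CPM in CBP-ifKO. The Controls differed little from each other, and no CBP-ifKO library reached them. Usp2 fell, with a log2 fold change of -0.44 ± 0.090 (SE; adjusted p by edgeR 0.00619) and lost its call only without CBP-ifKO 3 (-0.37, p 0.0628 adjusted) among the 17 alternatives.

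No other gene of the list passed the threshold. The 3 ROR activators of Arntl ranged from -0.44 to 0.18, with Rora at 0.18 (adjusted p 0.119) and Rorb at -0.18 (0.228). The 3 other E-box repressors ranged from -0.25 to -0.07, among them Bhlhe40 (DEC1) at -0.18 (adjusted p by edgeR 0.123). Of the 5 cofactors, 4 were above 0, with Sirt1, an NAD-dependent deacetylase of clock proteins, at 0.29 (adjusted p by edgeR 0.0804) and Sfpq, a partner of PER, at 0.13 (0.211). Por, an output gene for a reductase, was at -0.20 (adjusted p by edgeR 0.153).

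**Figure D2:**
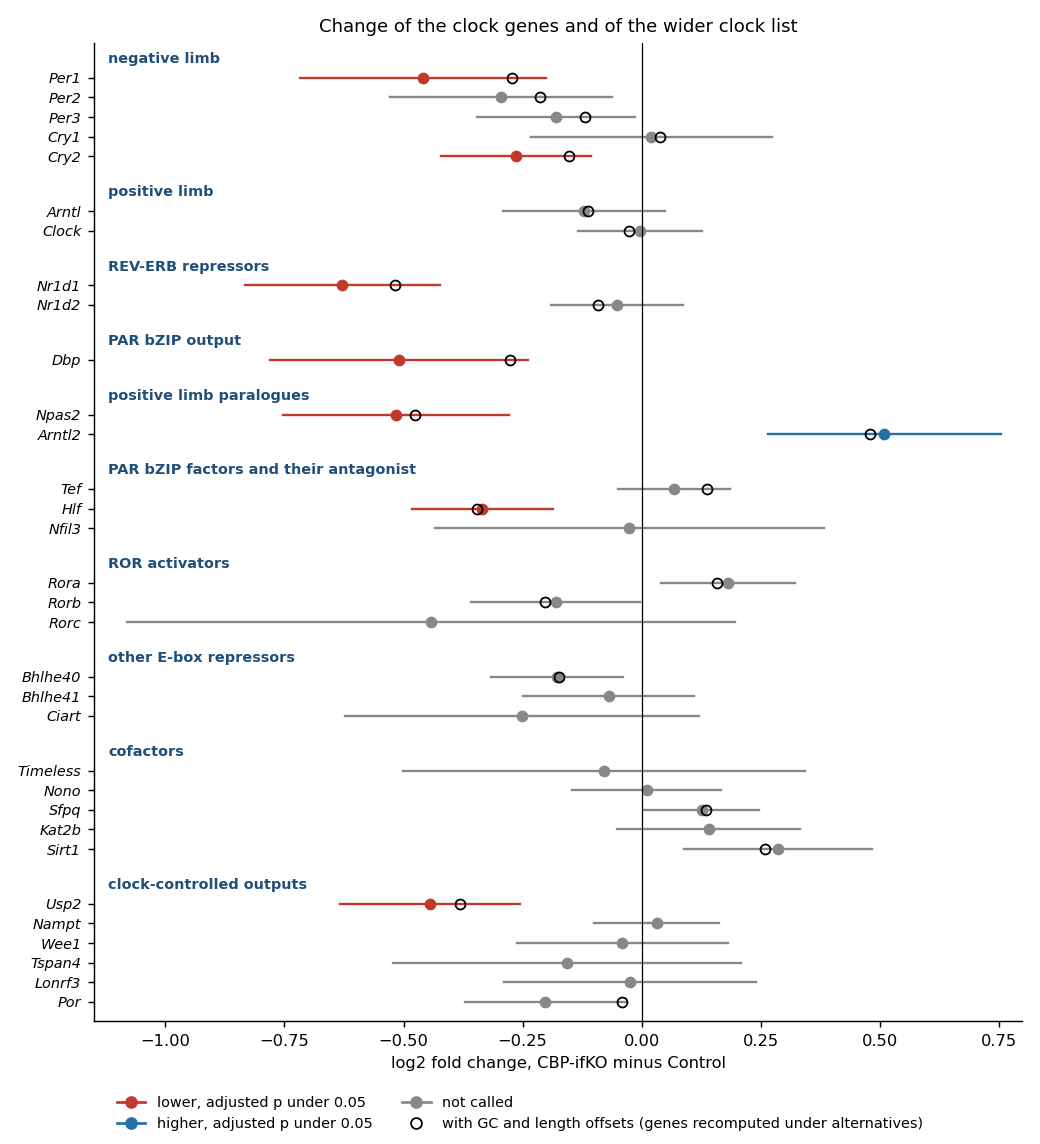
Log2 fold change (horizontal axis, CBP-ifKO minus Control) of the 10 clock genes and 22 further pathway genes, grouped by role and without the group of kinases, phosphatase and ubiquitin ligases, with 95% intervals as lines and open circles, where recomputed, for the estimate after removal of GC and length trends. Among the genes called, the open circles of Per1, Cry2, Dbp, Nr1d1 and, by less, Usp2 lie closer to 0 than the filled ones. Those of Npas2, Arntl2 and Hlf move little.

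Ratios between related genes within a library do not depend on how libraries are scaled, but a trend on GC content does not cancel in them. Genes within 2 percentage points of Nr1d1 in GC content had a median log2 fold change of -0.09, against 0.06 for Nr1d2. The same medians were -0.24 for Dbp, -0.04 for Tef, 0.05 for Arntl2 and 0.02 for Arntl. The 7 pairs were chosen after their values had been seen and are given with no test. Nr1d1 had 0.338, 0.292 and 0.346 counts per count of Nr1d2 in Control and 0.234, 0.197 and 0.228 in CBP-ifKO. The ratio of Dbp to Tef was 0.0420, 0.0562 and 0.0444 in Control and 0.0297, 0.0325 and 0.0328 in CBP-ifKO. The ratio of Arntl2 to Arntl was 0.399, 0.341 and 0.388 in Control and 0.670, 0.503 and 0.583 in CBP-ifKO. The groups did not overlap in these 3 ratios, nor in Nr1d1 to Arntl and Npas2 to Clock, and they overlapped in Cry2 to Cry1 and Per1 to Per3. In each ratio without overlap, the first gene was itself called with no overlap and the second was not called. Such ratios therefore partly restate those calls. A share over other gene pairs was not computed, and of single genes 13.9% were lower and 11.8% higher without overlap.

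**Figure D3:**
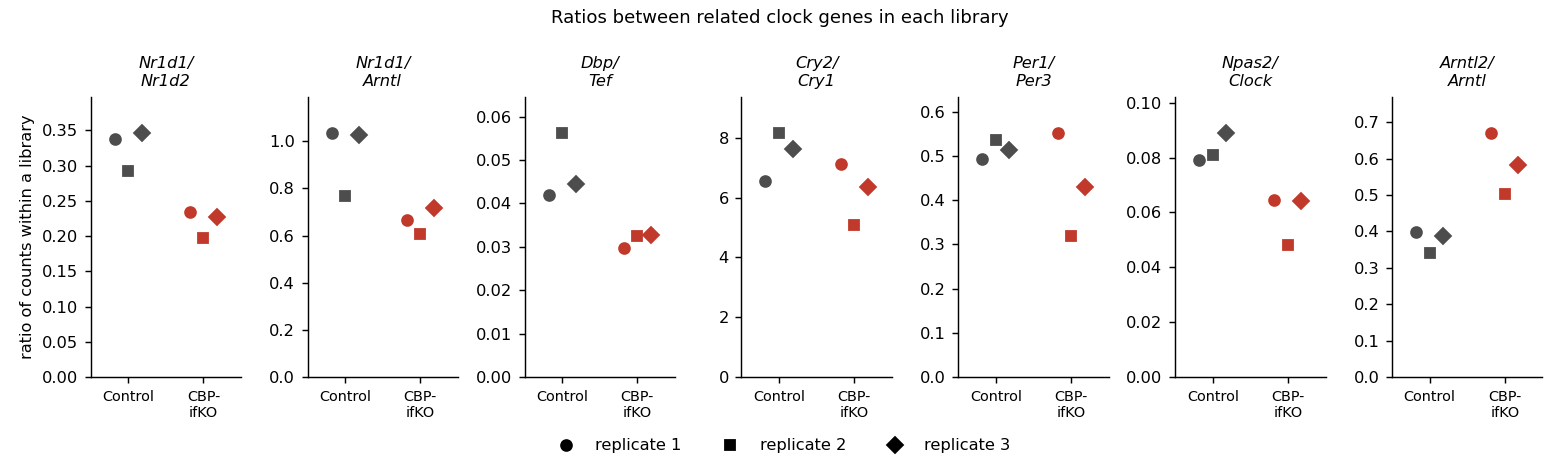
Ratio of the counts of 2 genes (vertical axis, from 0) within each of the 6 libraries, for 7 pairs. The CBP-ifKO points lie below the Control points for Nr1d1/Nr1d2, Nr1d1/Arntl, Dbp/Tef and Npas2/Clock, above them for Arntl2/Arntl, and among them for Cry2/Cry1 and Per1/Per3.

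In Control tissue the clock genes differed in level per length. On the scale of CPM per kilobase of exon, Nr1d2 was highest at 21.1 ± 0.82 (SD, n = 3), followed by Clock at 16.7 ± 0.53, Cry2 at 14.4 ± 0.89 and Nr1d1 at 12.1 ± 1.47. The ranges of these 4 genes over the Control libraries did not overlap. Per3, Per2 and Per1 followed at 7.21 ± 0.43, 6.36 ± 0.62 and 6.31 ± 0.23, with ranges that overlapped from each gene to the next. Arntl at 5.26 ± 0.23 and Dbp at 5.18 ± 0.69 overlapped too, and Cry1 was lowest at 3.68 ± 0.18.

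The GC content of a gene moved with its difference between genotypes. Over 17956 genes with a value, the Spearman correlation of log2 fold change with the GC content of the longest transcript was -0.285, across genes, which are not independent replicates and share the same 6 libraries. The 4 genes that fell had the highest GC contents of the 10, with 61.6% for Dbp, 59.4% for Per1, 56.8% for Nr1d1 and 55.6% for Cry2, while Clock and Nr1d2 had 40.9% and 41.8%. Genes within 2 percentage points of Dbp in GC content had a median log2 fold change of -0.24, those near Per1 -0.17, those near Nr1d1 -0.09 and those near Cry2 -0.07. Each of the 4 lay below the median of its neighbours, but they had been picked for being lower, so this does not test the GC trend. With per-library trends on GC content and length removed, Nr1d1 remained called (-0.52, adjusted p by edgeR 0.00775), as did Npas2 (-0.47, 0.0126), Arntl2 (0.48, 0.0165), Hlf (-0.35, 0.00248) and Usp2 (-0.38, 0.0128). Per1, Cry2 and Dbp lost their calls. The same offsets changed the split of all calls from 252 higher and 897 lower to 371 and 727, and scaling by library totals changed it to 514 and 667.

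**Figure D4:**
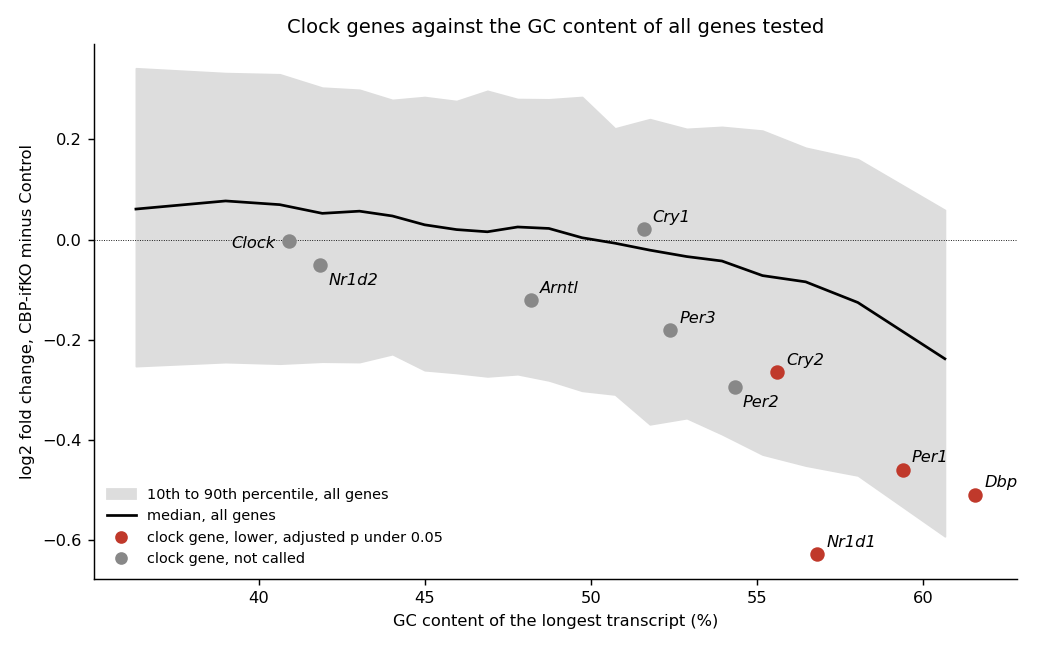
Log2 fold change (vertical axis, CBP-ifKO minus Control) against GC content of the longest transcript (horizontal axis, percent), with the median and the 10th to 90th percentile of all genes in 20 bins and the 10 clock genes as points. Nr1d1 lies below the 10th percentile of genes of like GC content, whereas Per1, Cry2 and Dbp lie above the 10th percentile of their bins. Dbp stands to the right of the drawn band, which ends at the median GC content of the last bin.

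Markers of excitatory neurons moved with the genotype. Of 5 CA1 markers, 4 fell (Wfs1, Fibcd1, Mpped1 and Man1a), where 4.99% of all genes fell and 1.4% rose. The summed level of the 5 was 454.5 to 462.9 CPM in Control and 304.0 to 329.4 CPM in CBP-ifKO. Single genes among 5 markers each fell for excitatory neurons (Nrgn), CA3 (Dkk3) and interneurons (Slc32a1), and in the dentate list C1ql2 and Tdo2 fell while Lct rose. None of the 5 markers each of astrocytes, oligodendrocytes, microglia or endothelium passed (edgeR). Of these, 1, 1, 2 and 1 had an unadjusted p under 0.05, as did 21.2% of all genes. Of the lists for tissue next to the hippocampus, 5 of 5 thalamus markers were below 0 and none passed (edgeR; 0 at an unadjusted p under 0.05), with summed levels of 61.9 to 74.7 CPM in Control and 55.3 to 61.9 CPM in CBP-ifKO. Of 4 striatum markers tested, Rgs9 rose (0.44, adjusted p by edgeR 0.0221) and 3 were below 0, among them Ppp1r1b at -0.50 (0.0531). None of 3 choroid plexus markers tested passed (edgeR; 1 at an unadjusted p under 0.05). The part of cell composition in the clock gene differences was not tested.

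Because Per1 answers to synaptic activity and to glucocorticoids, lists of genes for both signals were read beside it. Of 10 immediate early genes, 10 were below 0, against 50.7% of all genes, and their median was -0.40. All 10 had a GC content above the median of all genes (48.3%). Genes within 2 percentage points of each in GC content also had a median below 0, from -0.015 near Egr2 to -0.34 near Egr4. The share of 50.7% is therefore not a background of like GC content. The 1 that passed was Fosb (-1.03, adjusted p by edgeR 0.0349), where 6.39% of all genes did. Counts were low for several, with 15 to 40 per library for Fosb, 9 to 19 for Egr2 and 8 to 21 for Ier2. Control 2 was the highest library for Fos (7.90 CPM) and Junb (24.0 CPM). The summed level of the 10 was 137.2, 211.7 and 145.1 CPM in Control, against 156.7, 99.9 and 138.0 CPM in CBP-ifKO, so that the groups overlapped. The lowest sum was in CBP-ifKO 2, the library with the lowest Per1, and the highest in Control 2. Per1 differed little among the Controls (35.1, 34.5 and 37.0 CPM in Control 1 to 3). Of 8 glucocorticoid-responsive genes, none passed (edgeR; 0 at an unadjusted p under 0.05, against 21.2% of all genes), and their median was 0.01. The part of either signal in the level of Per1 was not tested.

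**Figure D5:**
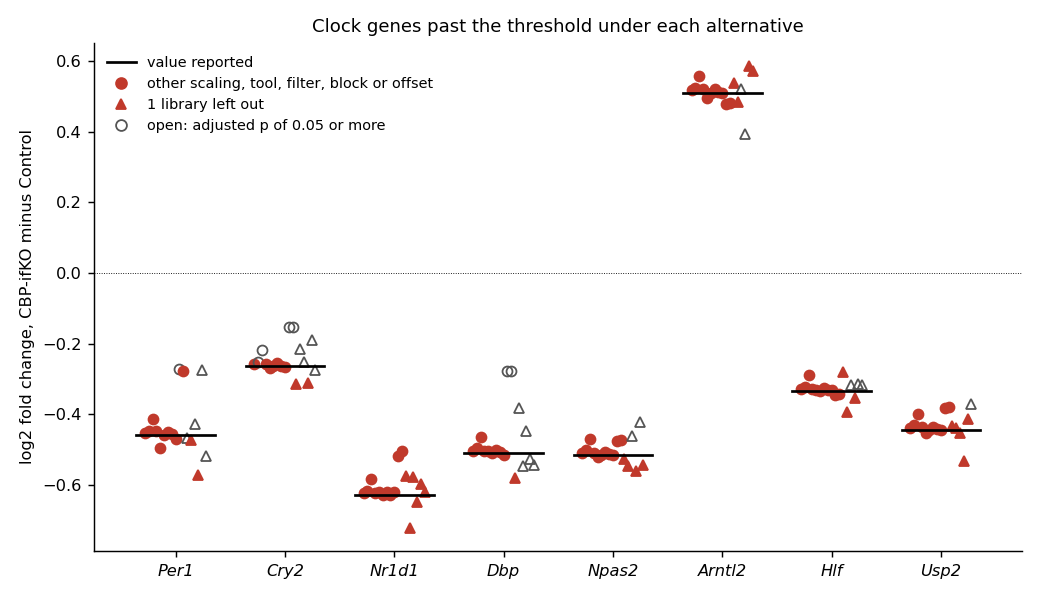
Log2 fold change (vertical axis, CBP-ifKO minus Control) of the 8 clock and pathway genes past the threshold under 17 alternatives each, with triangles where 1 library was left out, open symbols where the adjusted p was 0.05 or more and a black line at the value reported. Every alternative kept the direction of each of these genes, and Nr1d1 has no open symbol.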

How the data were processed

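Hippocampal RNA was sequenced in 6 libraries, single-end, 50 bp. The authors trimmed reads (Trim Galore 0.6.4), aligned them with STAR 2.6.1 to GRCm38, removed reads of low mapping quality and counted exons of Ensembl genes with Rsubread. Strand use was not stated. The deposited values are unnormalized counts for each gene. Groups and replicate numbers came from sample titles. Of the gene identifiers, 99.41% matched a GENCODE annotation of GRCm38.

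Counts were tested with edgeR 4.0.16 (R 4.3.3): TMM scaling, filterByExpr (minimum count 10, minimum total 15), the quasi-likelihood F-test, and Benjamini-Hochberg adjustment over all genes tested, with a threshold of 0.05. Levels are TMM-scaled CPM. The common biological coefficient of variation was 6.81%, and p-values measure the spread between these libraries only. Alternatives were RLE, upper-quartile and total scaling, DESeq2 1.42.0 (the tool of the study), limma-voom 3.58.1, robust dispersion, other filters, each library left out, the replicate number as a block, offsets for GC content and length (natural splines, 5 df), and a threshold of 0.01. Scripts were tested on simulated data.

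The clock genes and all lists were chosen with earlier results of these data known. Any member or listed gene could be named. Alternatives were computed for the members and, by a rule set after the values were seen, for listed genes with an unadjusted p under 0.05 and for Tef. The values of some listed genes are not reported here.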

Additional observations from a re-analysis of the deposited data

How the results depend on the processing

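Of the single-gene values recomputed under the alternatives, 367 kept their direction and their side of the threshold, 28 lost the call, 3 gained one and 10 changed sign. The calls lost are given beside each gene. The number of genes called, 1149, became 1839 when the replicate block was joined to offsets for GC and length and 476 at an adjusted p under 0.01, and ranged from 498 to 1326 with 1 library left out. Of the 4 clock genes called, 1 remained with GC and length offsets, 2 with the block and those offsets, and 1 at an adjusted p under 0.01, with a range of 1 to 3 when a library was left out. Of the 4 calls in the wider list, 2 remained at an adjusted p under 0.01, with a range of 1 to 4 when a library was left out. The sign changes were in genes close to 0. Clock was at 0.0041 with RLE, 0.010 with upper-quartile, 0.043 with total scaling, 0.0043 with DESeq2 and 0.0063 without the filter, and from -0.054 to 0.037 with a library left out, where Cry1 ranged from -0.047 to 0.076. Sirt1 passed with total scaling (0.33, adjusted p 0.0463).

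Same-numbered libraries deviated together with correlations of 0.0769, 0.0369 and 0.00216, and libraries of unlike number with -0.0852 to 0.0536. With 3 libraries per genotype, these values cannot decide whether the replicate numbers mark a pairing. With the replicate block, 5 clock genes were called, Per2 among them (-0.29, edgeR adjusted p 0.0454), and 1210 genes in all. Depth limits Dbp and Cry1 most, with 101 to 208 and 117 to 206 counts in a library. With 1 library left out, its genotype keeps 2 samples.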

Other observations

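By deviation from the genotype mean over the 6 libraries, among 12236 other genes with a mean of at least 5 CPM, the genes most like Per1 were Mink1, 5330417C22Rik, Zfp740, Gm45847 and Carmil3 (Pearson's r from 0.995 to 0.998). Among the other clock genes, r with Per1 ran from 0.89 for Per2 (rank 349) and 0.79 for Cry2 (rank 888) to -0.81 for Nr1d2, -0.82 for Cry1 and -0.87 for Clock. For Dbp the closest were Ddx23, Ppm1g, Rdh11, Nubp2 and Prdx5 (r from 0.994 to 0.9996), and r with Nr1d1 was -0.88. For Arntl they were Mrps22, Gm48482, Phtf2, Dclre1a and Tomm34 (r from 0.992 to 0.996). No clock gene was among the 5 closest to any of the 3. With 6 libraries, high correlations are found for many genes, and these values describe the libraries only.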
